A study of Mus musculus with 6 samples.

Results

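CXCR3 is the chemokine receptor that draws activated T cells and natural killer cells into inflamed tissue, and Cxcl9, Cxcl10 and Cxcl11 encode its ligands in the mouse. These 4 genes were taken by symbol from the deposited table, where each matched 1 gene model of 40303. All 4 passed the filter on low values, a mean of at least 10 normalized counts, and so were among the 13557 genes tested. The data are messenger RNA from 6 tumours of CT26, a mouse colon carcinoma line, grown under the skin of wild-type BALB/c mice. In 3 mice PEGylated glutaminase, an enzyme that breaks down glutamine in the circulation, was injected into the peritoneum at 50 IU per kg. The other 3 mice received vehicle only, which was 10% glycerol in phosphate-buffered saline. Tumours were frozen after 2 injections given 3 days apart, and each tumour gave 1 library. The labels give no age or sex. Each library mixes tumour cells with whatever host cells the piece held. Tumour weight and serum glutamine were not analysed here.

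As background, interferon-gamma from T cells and natural killer cells acts on macrophages, dendritic cells, endothelium and tumour cells to switch on all 3 ligands through IRF1 and other transcription factors. Cxcl9 depends most on interferon-gamma, while Cxcl10 also answers type I interferon and NF-kappaB. The ligands then bind CXCR3 on T cells with a T-helper type 1 or cytotoxic program, so that the axis can feed itself. In mouse tumours Cxcl9 and Cxcl10 from conventional type 1 dendritic cells and macrophages are known for guiding CD8 T cells. Cxcl11 is a special case, because the reference strain C57BL/6 carries a frameshift in it and makes no functional protein, whereas BALB/c mice make one. The gene models are MGP_BALBcJ_G0029724 for Cxcl9, MGP_BALBcJ_G0029726 for Cxcl10, MGP_BALBcJ_G0009913 for Cxcl11 and MGP_BALBcJ_G0035933 for Cxcr3. The deposited table lists Cxcl11 as a polymorphic pseudogene and the other 3 members as protein-coding genes.

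The ligand genes lie side by side on chromosome 5 and Cxcr3 on chromosome X. Promoter windows of 300 bases, 250 before and 50 after the transcription start, were found for 3 of the 4 members in RefSeq (build GRCm38.p6). The windows of Cxcl9 and Cxcl10 are shown because these genes had lower values together in the data and differ in the letters they carry. Both strands were searched. Capitals mark matches to an interferon-stimulated response element, GAAA and again GAAA with any 2 bases between, or to NF-kappaB sites, GGGA and TTCC (10 bases with any 2 between) or GGGANTTCC (9 bases). No matches overlapped.
Cxcl9 (chr5:92328030-92328329, minus strand, printed 5′ to 3′): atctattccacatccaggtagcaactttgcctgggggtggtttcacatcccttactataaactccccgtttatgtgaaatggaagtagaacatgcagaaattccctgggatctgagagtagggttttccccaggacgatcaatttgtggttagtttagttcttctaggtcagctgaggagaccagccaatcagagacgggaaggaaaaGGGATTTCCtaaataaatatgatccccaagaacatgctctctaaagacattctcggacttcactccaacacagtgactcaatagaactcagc
Cxcl10 (chr5:92348840-92349139, minus strand, printed 5′ to 3′): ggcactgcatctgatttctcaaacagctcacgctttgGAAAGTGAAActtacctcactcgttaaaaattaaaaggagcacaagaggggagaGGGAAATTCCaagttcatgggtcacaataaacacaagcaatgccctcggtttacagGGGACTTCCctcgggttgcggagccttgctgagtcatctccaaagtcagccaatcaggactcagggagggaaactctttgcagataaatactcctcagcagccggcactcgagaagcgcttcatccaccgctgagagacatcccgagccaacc
The Cxcl10 window held 1 response element, at positions -213 to -204 from the start, and 2 NF-kappaB matches, 1 of each length. The Cxcl9 window held 1 NF-kappaB match of 9 bases, at -42 to -34, and no match to that response element. In all 32851 promoters of the table, 3.44% held the response element, 1.68% the 9-base NF-kappaB letters and 1.47% the 10-base ones. A gamma-activated site, TTCNNNGAA, was found in 8.30% of promoters and in none of these windows. The Cxcr3 window held no match to any of the 4 motifs. No other motif was searched, so absence of a match does not mean that a window lacks an interferon-responsive element. The motifs were picked with the sequences in view, the sequences are of C57BL/6 and not BALB/c, and a match is a description of letters only.

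Between 16455052 and 16791267 reads per library were recovered in the PEG-glutaminase group and between 17380129 and 18051480 in the vehicle group. Vehicle 1 stood apart by its skin transcripts, with 5958 normalized counts summed over Krt14, Krt5, Krt10 and Lor, against 60.4 to 179 in the other 5 libraries; 4 of these 4 genes had lower means in PEG-glutaminase tumours, and limma and edgeR called 0 (0 unadjusted by limma), while DESeq2 gave none of the 4 an adjusted p. PEG-glutaminase 2 stood apart by the lowest T cell markers and the highest muscle markers, 199 and 1163 normalized counts summed over their lists. A normalized count is the number of reads after division by the size factor for that library.

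All 3 ligands had lower values in every PEG-glutaminase tumour than in any vehicle tumour, with ratios of group means from 0.532 to 0.568. The receptor was lower on average, but its groups overlapped. By limma 0 of the 4 members passed at an adjusted p of 0.05, with 3 at an unadjusted p under 0.05. Over all genes limma called 0.0369%, with 0.0295% lower, and had 18.4% at an unadjusted p under 0.05, or 9.51% in the lower direction. edgeR called 0 of the 4 and 0.0369% of all genes. DESeq2 called Cxcl10 and Cxcl11 lower, where it called 3.69% of all genes, 2.04% lower, and gave Cxcr3 no adjusted p. The median log2 difference of the 4 members was -0.85, against -5.0e-05 over all tested genes. In bulk tissue, fewer cells of a type and less RNA per cell cannot be told apart.

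Cxcl9, the ligand known as monokine induced by interferon-gamma, had 1158, 841 and 1249.9 normalized counts in PEG-glutaminase tumours 1, 2 and 3, against 1613, 1598 and 2799.8 in vehicle tumours 1, 2 and 3. The groups did not overlap, PEG-glutaminase 2 was the lowest library, and vehicle 3 stood well above the other vehicle tumours. Cxcl9 averaged 1083 ± 214 normalized counts in PEG-glutaminase tumours and 2004 ± 689.6 in vehicle tumours (SD, n = 3 each), a ratio of means of 0.541. The log2 difference was -0.86 ± 0.27 (SE; limma, adjusted p = 0.207).

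Cxcl10, the interferon-inducible protein of 10 kilodaltons, had 589, 355 and 585 normalized counts in PEG-glutaminase tumours, against 876, 737 and 1083 in vehicle tumours. The order of libraries was almost that of Cxcl9, again with PEG-glutaminase 2 lowest, vehicle 3 highest and no overlap. It averaged 510.0 ± 134 in PEG-glutaminase tumours and 899 ± 174 in vehicle tumours (SD, n = 3 each), a ratio of 0.568. The log2 difference was -0.84 ± 0.23 by limma (adjusted p = 0.167) and -0.82 by DESeq2 (adjusted p = 0.00395).

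Cxcl11, the ligand with the highest known affinity for CXCR3, had 81.8, 57.4 and 75.1 normalized counts in PEG-glutaminase tumours, against 121, 101 and 181 in vehicle tumours. PEG-glutaminase 2 was again the lowest and vehicle 3 the highest, without overlap. It averaged 71.4 ± 12.6 in PEG-glutaminase tumours and 134 ± 41.9 in vehicle tumours (SD, n = 3 each), a ratio of 0.532. The log2 difference was -0.87 ± 0.24 by limma (adjusted p = 0.136) and -0.91 by DESeq2 (adjusted p = 0.0399).

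Cxcr3 had 20.7, 25.7 and 14.4 normalized counts in PEG-glutaminase tumours, against 37.7, 18.6 and 43.2 in vehicle tumours. Vehicle 2 lay below PEG-glutaminase 1 and 2, so the groups overlapped, and PEG-glutaminase 2, lowest for each ligand, was the highest of its group for the receptor. The means were 20.3 ± 5.68 in PEG-glutaminase tumours and 33.2 ± 12.9 in vehicle tumours (SD, n = 3 each), a ratio of 0.612. The log2 difference was -0.64 ± 0.38 (SE; limma, adjusted p = 0.380). The libraries held 14 to 26 Cxcr3 reads in the PEG-glutaminase group and 19 to 44 in the vehicle group. Exact Poisson 95% intervals, which cover counting error only, ran from 16.8 to 37.7 normalized counts in PEG-glutaminase 2 and from 11.2 to 29.1 in vehicle 2, so these libraries were not distinguishable at this depth.

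The 3 ligands had groups that did not overlap and were lower, as had 12.7% of all tested genes, while a further 13.1% did not overlap and were higher. With 1 library left out at a time the 4 differences stayed negative and limma called 0 members. Cxcr3 moved most, to -0.99 without vehicle 2, -0.42 without PEG-glutaminase 3 and -0.41 without vehicle 3. The DESeq2 count depended on the library left out. It was 0 without vehicle 3 and 1 (Cxcl10) when any single PEG-glutaminase library was left out. It was 2 (Cxcl9 and Cxcl10) without vehicle 1 and 3 (all ligands) without vehicle 2.

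**Figure D1:**
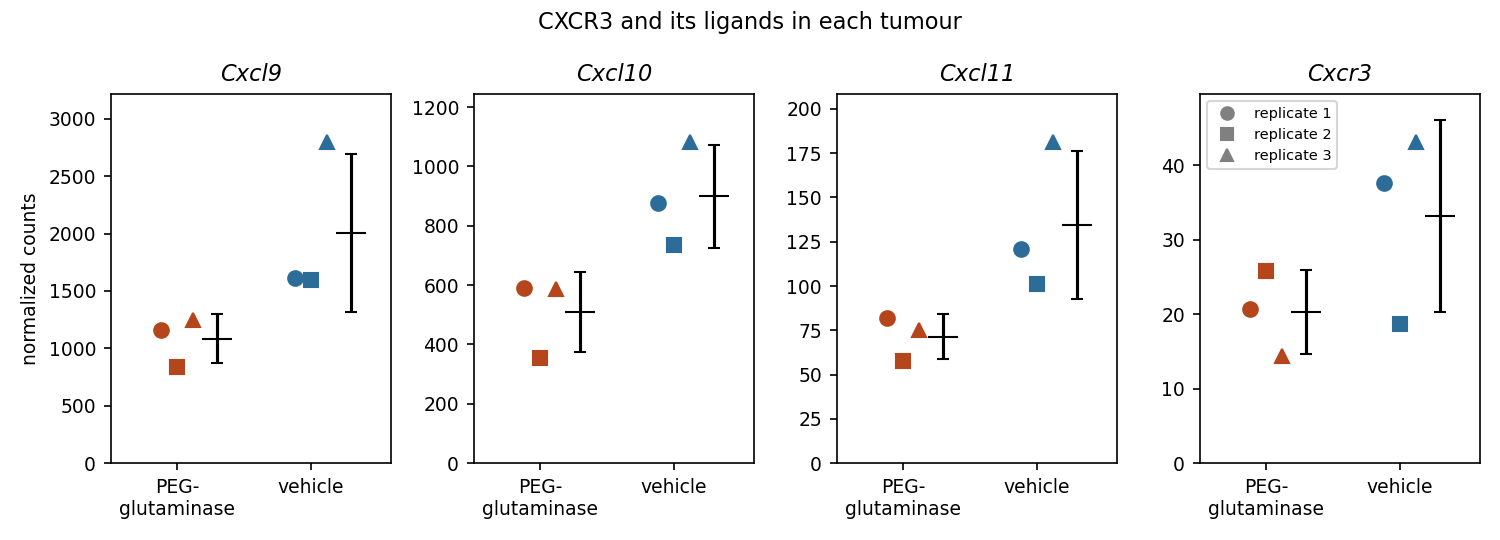
Normalized counts of each member by tumour, on axes from 0, with PEG-glutaminase tumours left of vehicle tumours, marker shape for replicate and a bar for mean ± SD (n = 3 each). The ligand groups do not overlap, while Cxcr3 of vehicle 2 (18.6) lies below PEG-glutaminase 1 and 2 (20.7 and 25.7).

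**Figure D2:**
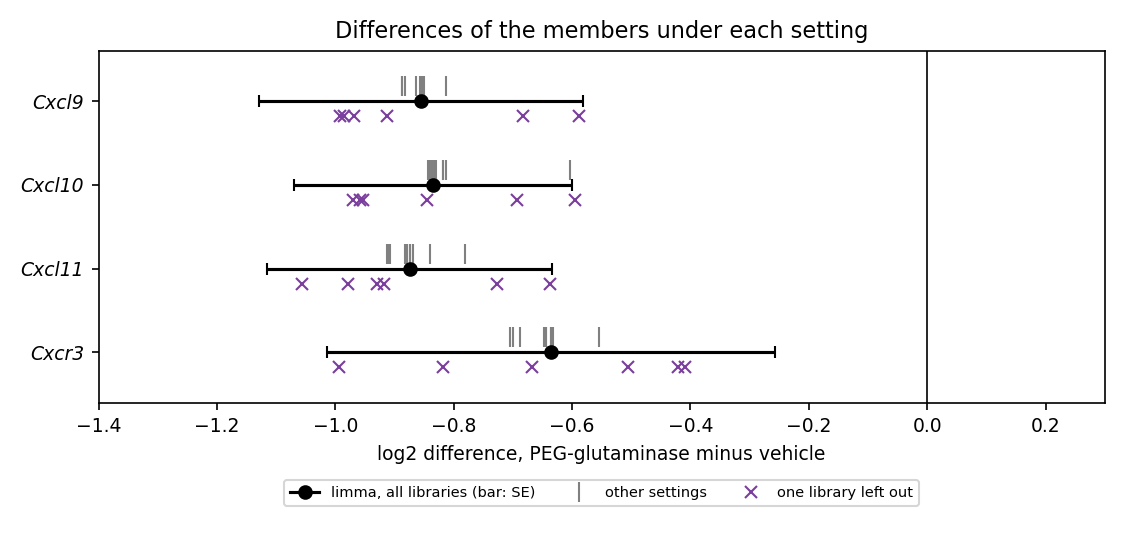
Log2 difference, PEG-glutaminase minus vehicle, of each member: the black point and bar are limma with all libraries and its SE, grey ticks are other settings, crosses leave out 1 library. Every value lies below 0, and Cxcr3 ranges from -0.99 to -0.41.

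The authors' deposited table holds its own comparison, with smaller differences. In the authors' deposited table the log2 fold changes were -0.26 for Cxcl9 (adjusted p = 0.833), -0.30 for Cxcl10 (adjusted p = 0.754), -0.35 for Cxcl11 (adjusted p = 0.641) and -0.26 for Cxcr3, which has no adjusted p there. The log2 ratio of the group means, computed from the same authors' deposited table, was -0.89, -0.82, -0.91 and -0.71 in that order. All 4 fold changes in the authors' deposited table were thus nearer to 0 than the libraries' own values, and the table does not say how they were made. The overall means deposited there were 1545 for Cxcl9, 714 for Cxcl10, 104 for Cxcl11 and 26.4 for Cxcr3. In PEG-glutaminase and vehicle tumours the group means were 1083 and 2004, 510 and 899, 71.4 and 134, and 20.3 and 33.2 in that order. Each deposited mean was thus close to the middle of its group means, without being the same. Whether the deposited comparison rests on the same values was not tested.

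Levels can be compared between genes only per transcript length, here the longest transcript in GENCODE M21. That was 2889 bases for Cxcl9, 2230 for Cxcl10, 3794 for Cxcl11 and 1731 for Cxcr3. Other transcripts were not tried, and a shorter one would raise the value of its gene, so the order of genes depends on this choice. On that scale of normalized counts per kilobase, Cxcl9 stood highest, at 375 ± 74.2 in PEG-glutaminase tumours and 694 ± 239 in vehicle tumours. Cxcl10 followed at 229 ± 60.1 in PEG-glutaminase tumours and 403 ± 78.1 in vehicle tumours, and was below Cxcl9 in every library. Cxcl11 reached 18.8 ± 3.32 per kilobase in PEG-glutaminase tumours and 35.4 ± 11.1 in vehicle tumours. Cxcr3 had 11.7 ± 3.28 in PEG-glutaminase tumours and 19.2 ± 7.44 in vehicle tumours (all SD, n = 3 each). Cxcl11 was above Cxcr3 in every library on this scale, with ranges of 15.1 to 21.6 and 8.32 to 14.9 per kilobase in PEG-glutaminase tumours, and 26.6 to 47.8 and 10.8 to 24.9 in vehicle tumours.

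The balance between the ligands within a library was compared as a log2 ratio of normalized counts, each with 1 added. For Cxcl9 to Cxcl10 it was 0.97, 1.24 and 1.09 in PEG-glutaminase tumours, against 0.88, 1.12 and 1.37 in vehicle tumours, so the groups overlapped. The difference of means was -0.019 (exact permutation test, two-sided, p = 0.9, n = 3 each, where the smallest possible p is 0.1). For Cxcl11 to Cxcl10 the log2 ratio was -2.83, -2.61 and -2.95 in PEG-glutaminase tumours, against -2.85, -2.85 and -2.57 in vehicle tumours. That difference was -0.038 (exact permutation test, two-sided, p = 0.7, n = 3 each). The spread between libraries of 1 group, an SD of 0.13 to 0.24 across both ratios, was wider than these differences. Leaving out 1 library put the first difference between -0.14 and 0.10 and the second between -0.13 and 0.055, so neither has a fixed sign.

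The profile of each member over the 6 libraries was compared with that of every tested gene, after centring each on its own mean, by the root mean square difference on the log2(value + 1) scale. Cxcl9 and Cxcl11 lay 0.10 apart, with 1 other gene nearer to each. Cxcl10 lay 0.16 from Cxcl9, with 44 genes nearer to Cxcl10 and 10 nearer to Cxcl9. It lay 0.14 from Cxcl11, with 25 genes nearer to Cxcl10 and 5 nearer to Cxcl11. Cxcr3 lay 0.42 to 0.51 from the ligands, where the median distance of all tested genes from the ligands was 0.53 to 0.56. The nearest genes to Cxcl9 were Fgl2, a fibrinogen-like protein (0.0995), the expressed sequence AI504432 (0.12) and the fractalkine receptor Cx3cr1 (0.12). Nearest to Cxcl10 were the transcription factor Batf2 (0.059), the chemokine Ccl3 (0.071) and the interferon-inducible GTPase Irgm1 (0.078). Nearest to Cxcl11 were Cx3cr1 (0.082), the apolipoprotein L gene Apol10b (0.12) and Ido2, an enzyme of tryptophan breakdown (0.12). Nearest to Cxcr3 were the chemokine Ccl17 (0.17), Mycl (0.18) and lipoprotein lipase, Lpl (0.19). These points share their libraries and group means.

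**Figure D3:**
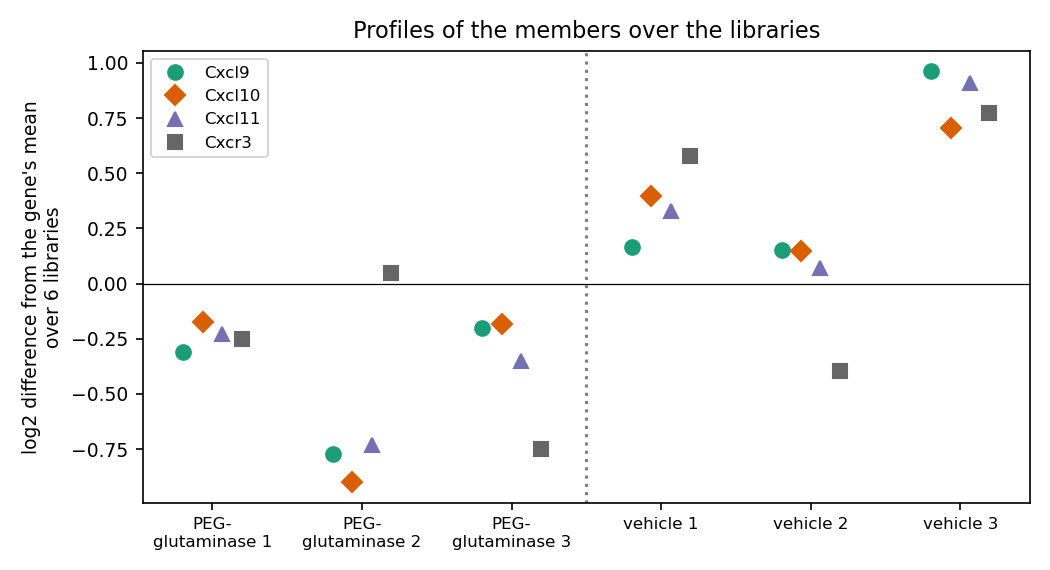
Log2 difference of each member from its own mean over the 6 libraries, PEG-glutaminase tumours left of the dotted line and vehicle tumours right. The ligands lie close to each other in each tumour, while Cxcr3 lies at 0.048 in PEG-glutaminase 2, where the ligands lie at -0.73 to -0.90, and at -0.40 in vehicle 2.

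The receptor was set beside the T cells that carry it, using the summed CD3 chains Cd3d, Cd3e and Cd3g, which form the invariant part of the T cell receptor. Cxcr3 per 100 summed Cd3 counts, each with 1 added, was 8.999, 61.4 and 4.54 in PEG-glutaminase tumours, against 8.37, 4.41 and 6.98 in vehicle tumours. PEG-glutaminase 2 stood far above the rest, with 25.7 Cxcr3 counts beside 42.6 Cd3 counts, while PEG-glutaminase 1 and 3 lay near the range of the vehicle tumours. The log2 ratio averaged -2.88 ± 1.95 in PEG-glutaminase tumours and -3.97 ± 0.48 in vehicle tumours (SD, n = 3 each). The difference was 1.09 (exact permutation test, two-sided, p = 0.4, n = 3 each, in a design whose smallest possible p is 0.1), and it was 0.0059 without PEG-glutaminase 2.

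**Figure D4:**
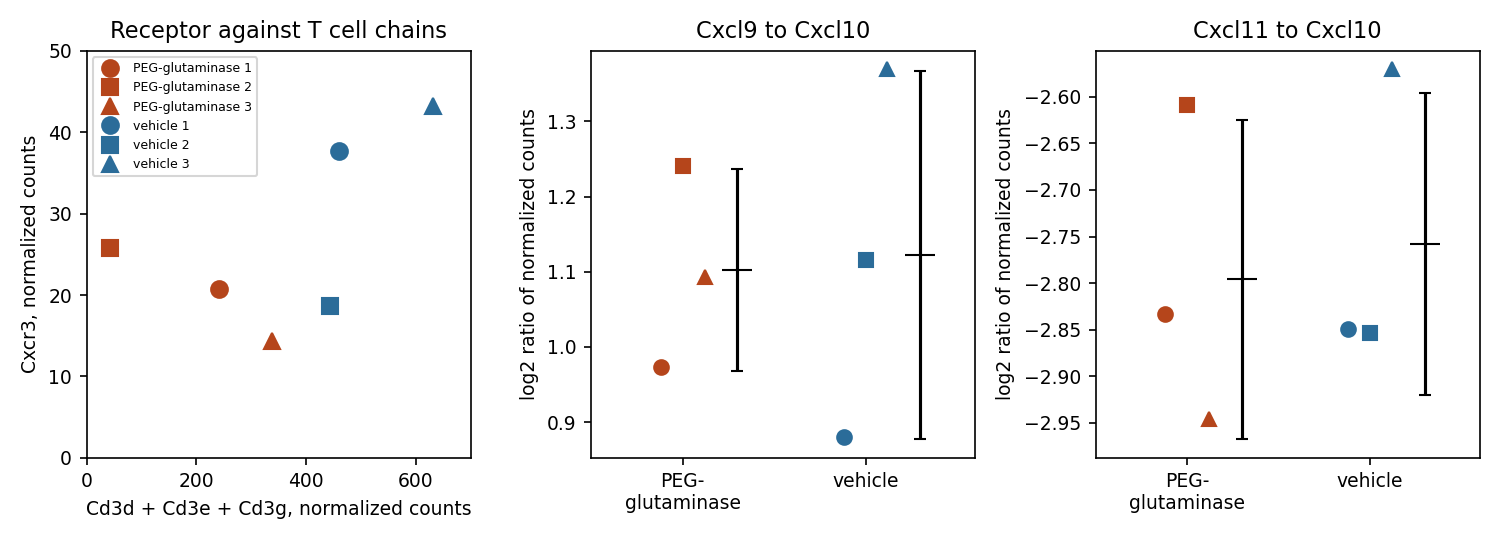
Left, Cxcr3 against the summed Cd3 chains per tumour in normalized counts; middle and right, log2 ratios (each value plus 1) of Cxcl9 and of Cxcl11 to Cxcl10 by group, with mean ± SD (n = 3 each). PEG-glutaminase 2 has 25.7 Cxcr3 counts at 42.6 Cd3 counts, and the ligand ratios of the groups overlap.

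Among cells that carry CXCR3, 10 of 10 T cell markers had lower means in PEG-glutaminase tumours, summing to 199 to 1090.5 normalized counts there and 1221 to 1692 in vehicle tumours. None of them was at 0 in any library. By limma 0 of them passed (2 at an unadjusted p under 0.05, against 18.4% of all tested genes), and by edgeR 0. DESeq2 called Cd3d lower, where it called 2.04% of all genes lower. Cd3e stood at a log2 difference of -1.73 ± 1.04, Cd8a of cytotoxic T cells at -1.74 ± 1.14 and Cd4 of helper T cells at -0.63 ± 0.33. Tbx21, which encodes the T-bet factor that switches on Cxcr3, stood at -1.22 ± 0.54. Without PEG-glutaminase 2 these were -0.62 for Cd3e, -0.52 for Cd8a and -0.65 for Tbx21, while Cxcr3 was -0.82. With all libraries Cd8a was -1.06 by DESeq2 and by edgeR with the deposited scaling, and Cd3e -1.15 by DESeq2 and by edgeR with TMM scaling. Cd4 had 25.9, 49.5 and 30.9 normalized counts in PEG-glutaminase tumours, highest in PEG-glutaminase 2 like Cxcr3, against 59.9, 35.3 and 71.6 in vehicle tumours, lowest in vehicle 2 like Cxcr3. Of the natural killer cell markers 5 were tested and 5 were lower, with sums of 320 to 1585 in PEG-glutaminase tumours and 1745 to 2337 in vehicle tumours. By limma, edgeR and DESeq2 0 of them passed (0 unadjusted by limma). Ncr1, a receptor of natural killer cells, stood at -0.50 ± 0.29, at -0.26 without PEG-glutaminase 1 and at -0.87 without PEG-glutaminase 3. How far the number of these cells sets the level of Cxcr3 was not tested beyond the Cd3 ratio.

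Among cells that make the ligands, 5 of 6 markers of conventional type 1 dendritic cells were lower, with sums of 1330 to 1789 in PEG-glutaminase tumours and 1918 to 2272 in vehicle tumours. Irf8 made up most of each sum, at 740 to 1177 in PEG-glutaminase tumours and 1389 to 1449 in vehicle tumours. Without it the sums of the groups overlap, and so do the values of Clec9a and of Batf3. By limma 0 passed (3 unadjusted, against 18.4% of all tested genes, or 9.51% in the lower direction), and by edgeR 0. DESeq2 called Xcr1 and Irf8 lower, where it called 2.04% of all genes lower, and gave Clec9a no adjusted p. Xcr1, the receptor that defines these cells, had 33.1, 39.6 and 35.0 normalized counts in PEG-glutaminase tumours and 61.8, 68.7 and 82.4 in vehicle tumours, without overlap. Its log2 difference was -0.96 ± 0.22 (limma adjusted p = 0.114; DESeq2 adjusted p = 0.0471). Clec9a, which senses dead cells, stood at -0.79 ± 0.38 and the dendritic cell factor Batf3 at -0.50 ± 0.36, which ranged from -0.77 to -0.21 when 1 library was left out. Macrophage and monocyte markers did not share this direction: 5 of 7 tested were higher, with sums of 41368 to 47677 in PEG-glutaminase tumours and 34314 to 46245 in vehicle tumours. Ly6c2 of monocytes was at 0 in 5 libraries. Adgre1, which encodes F4/80, stood at 0.10 ± 0.21, and at -0.073 without vehicle 2. By limma 0 macrophage markers passed (2 unadjusted, against 18.4% of all tested genes), and by edgeR 0. DESeq2 called the mannose receptor Mrc1 higher, where it called 3.69% of all genes in either direction. The part of these cells in the ligand levels was not tested.

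The signals that induce the ligands were next. Of 9 such genes 6 were tested, and 4 were lower, with a median of -0.58. By limma and edgeR 0 passed, with 3 at an unadjusted p under 0.05 by limma. Over all tested genes 18.4% had such a p, or 9.51% in the lower direction. DESeq2 called 0 of the 3 to which it gave an adjusted p, and gave none to the other 3, Ifng, Il12b and Il27. Ifng, the main inducer, had 20.7, 11.9 and 21.6 normalized counts in PEG-glutaminase tumours, against 36.7, 31.4 and 51.0 in vehicle tumours. PEG-glutaminase 2 was lowest and vehicle 3 highest, as for the ligands. The groups did not overlap, and 12.7% of all tested genes were lower without overlap. The log2 difference of Ifng was -1.11 ± 0.33 (limma adjusted p = 0.153). Tnf, which acts through NF-kappaB, stood at -0.70 ± 0.21 with no overlap (limma adjusted p = 0.153), and Il12b, which encodes a chain of interleukin-12, at -0.47 ± 0.44. Il12b moved to -0.24 without vehicle 2, to -0.31 without vehicle 3 and to -0.86 without vehicle 1. Ifnb1, interferon-beta, had at most 2.06 normalized counts in any library and was not tested.

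Along the route from interferon to the ligands, Stat2, Irf9 and Irf1 had lower means, while the named receptor chains and kinases lay nearer to 0. Of 16 genes 12 were lower, with a median of -0.14. Groups did not overlap in 6, all lower, where 25.8% of all tested genes did not overlap and 12.7% did so while lower. By limma 0 of the 16 passed (6 unadjusted, against 18.4% of all tested genes), and by edgeR 0. DESeq2 called 4 lower, Stat2, Irf1 and Irf9 among them, where it called 2.04% of all genes lower. Irf1, an activator of the ligand genes, stood at -0.69 ± 0.17 (limma adjusted p = 0.135; DESeq2 adjusted p = 0.00205). Stat2, which carries the type I interferon signal together with Irf9, stood at -0.62 ± 0.22 (limma adjusted p = 0.220) and Irf9 at -0.59 ± 0.16 (limma adjusted p = 0.152). Without PEG-glutaminase 2 both stood at -0.38. Socs1, a feedback inhibitor that interferon-gamma itself induces, stood at -0.37 ± 0.13 (limma adjusted p = 0.181).

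The receptor chains of interferon-gamma, Ifngr1 and Ifngr2, stood at -0.17 ± 0.093 and 0.044 ± 0.088, and Ifnar1 and Ifnar2 of the type I receptor at 0.0057 ± 0.076 and -0.19 ± 0.11. Ifngr1 was -0.11 without PEG-glutaminase 2 and -0.26 without PEG-glutaminase 3. The kinases Jak1 and Jak2 stood at -0.0015 ± 0.075 and -0.033 ± 0.090, and Rela, the p65 subunit of NF-kappaB, at -0.042 ± 0.083. None of these passed by limma, edgeR or DESeq2. The signs of Ifngr2, Ifnar1, Jak1, Jak2 and Rela changed with the library left out, and those of Ifnar1 and Jak1 also with the scaling.

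**Figure D5:**
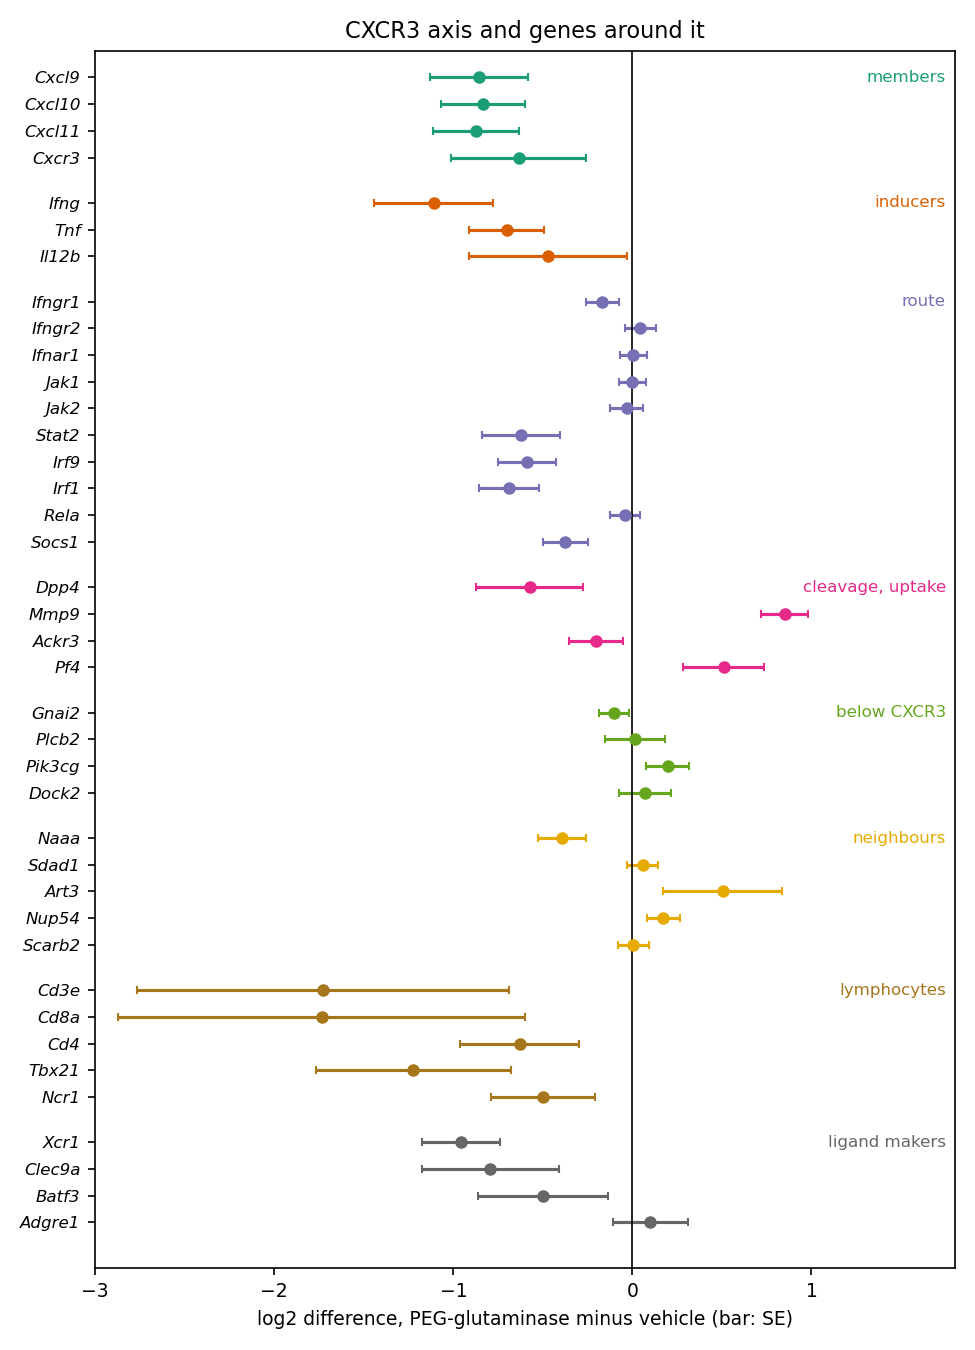
Log2 difference, PEG-glutaminase minus vehicle, with SE from limma, for the members and the genes around them, grouped by role. The ligands, Ifng, Stat2, Irf9, Irf1 and Xcr1 lie between -1.11 and -0.59, while Ifngr1, Ifngr2, Ifnar1, Jak1 and Jak2 lie between -0.17 and 0.044.

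Proteins that cleave or take up the ligands act after transcription. Of 9 genes 6 were tested, 3 lower and 3 higher, with a median of -0.056. By limma 0 passed (1 unadjusted, against 18.4% of all tested genes), and by edgeR 0. DESeq2 called Mmp9 higher, where it called 3.69% of all genes in either direction, and gave 1 gene, Mmp8, no adjusted p. Mmp9, a gelatinase that can cut CXCR3 ligands, had 348, 327 and 398 normalized counts in PEG-glutaminase tumours, against 220.2, 179 and 195 in vehicle tumours, without overlap. Its log2 difference was 0.85 ± 0.13 (limma adjusted p = 0.0954; DESeq2 adjusted p = 0.000161). limma called it without PEG-glutaminase 2 (adjusted p = 0.0350) and with no filter (adjusted p = 0.0107). Dpp4, the peptidase that trims the ligands at their start and turns them into antagonists, had 28.0, 27.7 and 23.7 normalized counts in PEG-glutaminase tumours and 36.7, 29.4 and 57.9 in vehicle tumours. It stood at -0.57 ± 0.30, or -0.31 without vehicle 3. Ackr3, a scavenging receptor of Cxcl11 and Cxcl12, stood at -0.20 ± 0.15, at -0.068 without PEG-glutaminase 2, -0.10 without vehicle 3 and -0.34 without vehicle 1. Pf4, a platelet chemokine that binds a CXCR3 variant in humans, stood at 0.51 ± 0.22, or 0.26 without vehicle 3. The decoy receptors Ackr1 and Ackr2 were too low to test, at 1.03 to 12.4 and 1.03 to 3.96 normalized counts in PEG-glutaminase tumours and 1.96 to 3.86 and 7.73 to 8.83 in vehicle tumours.

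Below the receptor, G proteins of the Gi family, phospholipase C beta and phosphoinositide 3-kinase gamma carry the signal that moves the cell. Of 11 such genes 5 were lower and 6 higher, with a median of 0.015. In 0 of them did the groups part without overlap, where 25.8% of all tested genes did in either direction. By limma, edgeR and DESeq2 0 passed, with 0 at an unadjusted p under 0.05 by limma, against 18.4% of all tested genes. Gnai2 stood at -0.10 ± 0.085, Pik3cg at 0.20 ± 0.12, Plcb2 at 0.015 ± 0.17 and Dock2, which activates Rac in moving lymphocytes, at 0.069 ± 0.14. Pik3cg was 0.30 without vehicle 3, and Plcb2 and Dock2 changed sign with the library left out. Most of these genes serve many receptors and cell types.

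Most neighbours of the ligand cluster on chromosome 5 did not share the direction of the ligands. Of 6 genes 5 were tested, 1 lower and 4 higher, with a median of 0.058. By limma 0 passed (1 unadjusted, against 18.4% of all tested genes). By edgeR and DESeq2 0 passed, with no adjusted p for Art3 by DESeq2. Naaa, a lysosomal amidase, stood at -0.39 ± 0.13 with no overlap, or -0.24 without vehicle 3. Sdad1, which acts in ribosome assembly, stood at 0.058 ± 0.086, the nuclear pore gene Nup54 at 0.17 ± 0.091 and the lysosomal membrane gene Scarb2 at 0.0060 ± 0.088. Nup54 was higher with no overlap, at 990 to 1043 normalized counts in PEG-glutaminase tumours and 812 to 980 in vehicle tumours. Its log2 difference was 0.094 without vehicle 3. Over all tested genes 25.8% did not overlap in either direction. The signs of Sdad1 and Scarb2 changed with the library left out. Art3 runs on the opposite strand across Cxcl10 and Cxcl11 in GENCODE M21, and its exons share bases with Cxcl10 there. It had 25.9, 40.6 and 24.7 normalized counts in PEG-glutaminase tumours and 18.4, 16.7 and 28.4 in vehicle tumours. Its log2 difference was 0.50 ± 0.33 (limma adjusted p = 0.427), or 0.28 without PEG-glutaminase 2, and so had the other sign from that of Cxcl10. Whether counting used the strand is not stated in the labels, and without it reads of Art3 and Cxcl10 in the shared bases cannot be told apart. Cxcl10 had 359 to 1104 reads a library and Art3 17 to 41.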

How the data were processed

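Values, groups and replicate numbers came from 1 deposited table and from the sample titles. Per the submitters' processing notes, FastQC, STAR, featureCounts, DESeq2 and DESeq were used. Their versions and settings, strand use and the genome build are not given in these sources. Rows are BALB/cJ gene models with mouse symbols, per the file headers. Of 40396 rows 93 repeat a model, and each of 40303 models was used once. The 2902 models that lack a symbol took 0.13% to 0.214% of reads. The deposited expression signal is a normalized count, reads over the size factor for that library, as the values show. The authors' own comparison gives a log2 fold change and its standard error, a Wald score and p-values, per the file headers. The headers do not state its direction, which was read as positive where PEG-glutaminase is higher. The members had the same sign there as in the log2 ratio of their group means.

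Every non-zero value was a whole multiple of its library's value for 1 read within 0.01, so reads were recovered for all 6 libraries. The main test was limma 3.58.1 (R 4.3.3) on log2(value + 1), two-sided, with a mean trend, robust estimation and Benjamini-Hochberg adjustment over 13557 genes with a mean of at least 10. Lower and higher in counts of genes refer to this log2 difference. This scale understates changes of low genes. The p-values measure the spread between libraries of a group, in which differences between mice, tumour pieces and library preparation are not separated. Alternatives were other pseudocounts, filters and scalings, edgeR 4.0.16, DESeq2 1.42.0, limma-voom, a replicate block and each library left out. The DESeq2 fits with a library left out were chosen after seeing the data. Members and lists were chosen with earlier results of these data known. Genes were named by fixed lists, whatever their result, plus the 3 nearest profiles of each member; Cd3d, Irf8, Mrc1, Kdr, Cx3cr1 as a call, Ly6c2, Ifnar2, Il27, Mmp8, the red blood cell genes and the skin genes were named after their values were seen. Some genes of these lists enter the counts but are not reported here by name. Klrb1c was not found in the table by symbol. Ratios used exact permutation tests in scipy 1.17.1. The test was also run on simulated data, in which every gene had the same spread beyond counting error. In these tumours that spread differs from gene to gene, so the run does not measure the error rate here.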

Additional observations from a re-analysis of the deposited data

How the results depend on the processing

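limma called 0 members under every setting. All 18 alternatives gave Cxcl9 (-0.99 to -0.59), Cxcl10 (-0.97 to -0.59) and Cxcl11 (-1.06 to -0.64) a negative difference, as did the 16 that gave Cxcr3 an adjusted p (-0.99 to -0.41); DESeq2 set no adjusted p for Cxcr3 and a mean of at least 50 dropped it. DESeq2 called 2 members, Cxcl10 at -0.82 and Cxcl11 at -0.91, and 0 to 3 with 1 library left out. The count over all genes, 5 by limma, was 136 with no filter, 500 by DESeq2, 1 with the replicate block and 0 to 26 with 1 library left out. Same-numbered libraries deviated from their group means with correlations of -0.13, -0.21 and -0.22, so they showed no shared deviation. With so few libraries this cannot exclude that same-numbered tumours were handled together. With the block the limma adjusted p was 0.107 for Cxcl9, 0.0959 for Cxcl10, 0.218 for Cxcl11 and 0.511 for Cxcr3. Leaving out 1 library put the Cxcl9 to Cxcl10 difference at -0.14 to 0.10, Cxcl11 to Cxcl10 at -0.13 to 0.055 and Cxcr3 to Cd3 at 0.0059 to 1.88.

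Among genes near 0, leaving out 1 library gave -0.0090 to 0.12 for Ifngr2, -0.047 to 0.022 for Jak1, -0.11 to 0.020 for Jak2, -0.038 to 0.031 for Ifnar1, -0.11 to 0.0029 for Rela, -0.093 to 0.10 for Plcb2, -0.055 to 0.23 for Dock2, -0.0056 to 0.095 for Sdad1, -0.058 to 0.071 for Scarb2 and -0.073 to 0.33 for Adgre1. With vehicle 1 and PEG-glutaminase 2 both out, Ifngr2 was -0.0033, Jak1 0.028, Jak2 0.037, Rela 0.00034 and Scarb2 -0.061. TMM scaling gave Jak1 0.0031 in limma and 0.0043 in edgeR, and upper quartile scaling gave Ifnar1 -0.0025 and Scarb2 -0.0022. The cause of these changes was not tested. Depth limits Cxcr3, with 14 to 44 reads a library.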

Other observations

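Other receptors through which T cells enter and stay in tumours were measured in the same tumours. Of 9 listed, 7 were tested and 5 were lower. By limma 0 passed (2 at an unadjusted p under 0.05, against 18.4% of all tested genes), and by edgeR 0. DESeq2 called Cx3cr1 lower, where it called 2.04% of all genes lower. Cxcr6, which holds T cells near dendritic cells, had 91.1, 11.9 and 106 normalized counts in PEG-glutaminase tumours and 144, 195 and 232 in vehicle tumours, without overlap. It stood at -1.90 ± 0.91 (limma adjusted p = 0.338), or -0.92 without PEG-glutaminase 2. Ccr7, which guides cells to lymph nodes, had 62.1, 45.5 and 48.4 in PEG-glutaminase tumours and 70.5, 65.7 and 91.2 in vehicle tumours, at -0.53 ± 0.22 (limma adjusted p = 0.240).

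Of the other cell types, endothelial markers, a further source of Cxcl9 and Cxcl10, were higher in 4 of 4, summing to 2499 to 3303.5 normalized counts in PEG-glutaminase tumours and 2403 to 2455 in vehicle tumours. By limma 0 passed (2 unadjusted, against 18.4% of all tested genes), and by edgeR 0. DESeq2 called Kdr higher, where it called 3.69% of all genes in either direction. Fibroblast markers summed to 21956 to 35624 in PEG-glutaminase tumours and 21166 to 25075 in vehicle tumours, with 2 of 4 lower, and 0 passed by limma, edgeR or DESeq2 (0 unadjusted by limma). B cell markers stayed at 6.21 to 22.8 in PEG-glutaminase tumours and 6.87 to 14.5 in vehicle tumours. Of the B cell markers 1 was tested, and limma and edgeR called 0 (0 unadjusted by limma), while DESeq2 gave it no adjusted p. Muscle markers spread over 25.7 to 1163 in PEG-glutaminase tumours and 154 to 829.9 in vehicle tumours, with 4 of 4 lower by limma's log2 difference and 3 of 4 by the ratio of group means. By limma and edgeR 0 of them passed (0 unadjusted by limma), and by DESeq2 0 of the 3 that had an adjusted p. Hbb-bs of red blood cells rose in the PEG-glutaminase tumours (log2 difference 1.11 ± 0.13, limma adjusted p = 0.0371), while Hba-a1 had at most 1.93 normalized counts in any library; globin genes have near-identical copies that can share reads, so both levels are uncertain.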
